A study of Mus musculus with 6 samples.

Results

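The genes of the major histocompatibility complex (MHC) class II presentation pathway were followed in mouse CD4+ T cells from the naive state to day 18 after activation. The members were H2-Aa, H2-Ab1, H2-Eb1, H2-DMa, H2-DMb1, H2-Oa, H2-Ob, Cd74 and Ciita, taken as every probe whose listed name was one of these symbols, in any case, or an older synonym of one. That gave 16 of the 45281 probes on the array and 9 of 28902 genes. The cells came from 6-week-old mice of the strain labelled RAG1- BW TRP-1 TCR, which carry a transgenic receptor for TRP-1, a melanocyte protein, so that the control and every activated sample share the receptor and the RAG1 deficiency. Unactivated CD4+ cells formed day 0, and Th17 cells stimulated with TRP-1 peptide were sampled at days 2, 4, 7, 12 and 18. Each day had 1 library on an Illumina bead array, so no difference below has a replicate check, a standard error or a p-value, and the number of arrays limits the precision. Mice without RAG1 make no B cells or T cells of their own, while their macrophages and dendritic cells remain.

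Class II molecules display peptides from endocytosed proteins to CD4+ T cells. An alpha and a beta chain (H2-Aa with H2-Ab1 for I-A, an E alpha chain with H2-Eb1 for I-E) assemble on the invariant chain Cd74, which guides them to endosomes. There H2-DM (H2-DMa with H2-DMb1) exchanges the invariant chain remnant for peptide, and H2-O (H2-Oa with H2-Ob) holds H2-DM back. Ciita, the class II transactivator, binds no DNA itself and acts through factors on the X and Y boxes of these promoters; interferon gamma induces it in many cell types. B cells, dendritic cells and macrophages are the usual class II cells, whereas mouse T cells, unlike activated human T cells, are known for making little or none of their own.

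In GRCm38.p6 the 7 H2 members lie on chromosome 17 between H2-Oa (start 34092379) and H2-Eb1 (end 34316674) and Ciita is on chromosome 16 (10480014 to 10531064). RefSeq promoter windows, from 250 bases before to 50 after a listed start, were matched for 6 members (H2-Aa, H2-Eb1, H2-DMa, H2-DMb1, H2-Oa and H2-Ob). Those of H2-DMa lay within the gene and not at its outer start. H2-Ab1, Ciita and Cd74 are named only. The stretches below are shown because they hold the letters that these members share upstream and because genes with and without a late difference carry them. Capitals mark GNAAC, letters within the X box, and TGATTGG, letters within the Y box, each read 5′ to 3′ on the gene's own strand.
H2-Aa, chr17:34287859-34287912, minus strand: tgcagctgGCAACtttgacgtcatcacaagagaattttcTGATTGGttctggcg
H2-Eb1, chr17:34305768-34305820, plus strand: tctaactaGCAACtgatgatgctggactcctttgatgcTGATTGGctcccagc
H2-DMb1, chr17:34153089-34153142, plus strand: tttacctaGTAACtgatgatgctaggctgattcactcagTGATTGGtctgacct
H2-Oa, chr17:34092295-34092348, plus strand: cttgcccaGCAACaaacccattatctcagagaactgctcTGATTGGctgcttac
H2-Ob, chr17:34238810-34238860, plus strand: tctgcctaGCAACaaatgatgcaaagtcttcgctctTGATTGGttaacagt

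The pair of motifs, GNAAC followed by TGATTGG after 20 to 30 bases, was searched on both strands, and this spacing was chosen after the members' windows had been read. It was present in 5 of the 6 members with a window, or 5 of their 7 windows, and in 0.323% of 32851 windows of all genes. With the spacing chosen on these members, that contrast is no test. GNAAC alone was in 84.8% of windows and TGATTGG alone in 7.82%. In these 5 members the bases between the motifs numbered 23 to 26, and the GNAAC motif began 76 to 94 bases before the listed start. Neither of the H2-DMa windows held the pair, which says only that those letters are not in those windows. Both (34122582 to 34122881 and 34125268 to 34125567) lay inside the gene. Its listed outer start, 34119693, was not searched. A match is a description of sequence, and no binding was measured.

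Between 13687 and 14258 probes were detected per array (detection p below 0.01). Levels are given as normalized log2 signals, on which the lowest detected probe of an array lay at 4.88 to 4.97 and the highest at 14.87. "Higher" and "lower" mean a difference of 2-fold or more with the brighter library detecting the probe. A fold written "at least" is a lower limit, given when the probe went undetected in the dimmer library. The labelled cell type was checked on a fixed list of T cell markers: all 11 on the array were detected in all 6 libraries, with Cd3g at 11.13 at day 0 and 12.76 at day 18. The day 0 library stood apart: 6 of 7 erythroid markers on the array were detected there, among them the red cell carbonic anhydrase Car1 at 13.23, against 0 at day 18. Markers of macrophages were also present at day 0, as given below. In bulk RNA, fewer cells of a type and less RNA per cell cannot be told apart.

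All 9 members were detected at day 0, and 7 of them in all 6 libraries. The chains that make up the peptide-binding molecules and the invariant chain were as high at day 2 as at day 0 to within 2-fold, and their values then descended at each day to day 12, in some steps by less than 2-fold. The members divided into a group that ended far below day 0 (H2-Aa, H2-Ab1, H2-Eb1, Cd74 and, by less, H2-DMb1), a pair that ended within 2-fold of it (H2-DMa and H2-Oa) and a pair that passed below detection (H2-Ob and Ciita). No member was higher by 2-fold than at day 0 on any activated day.

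**Figure D1:**
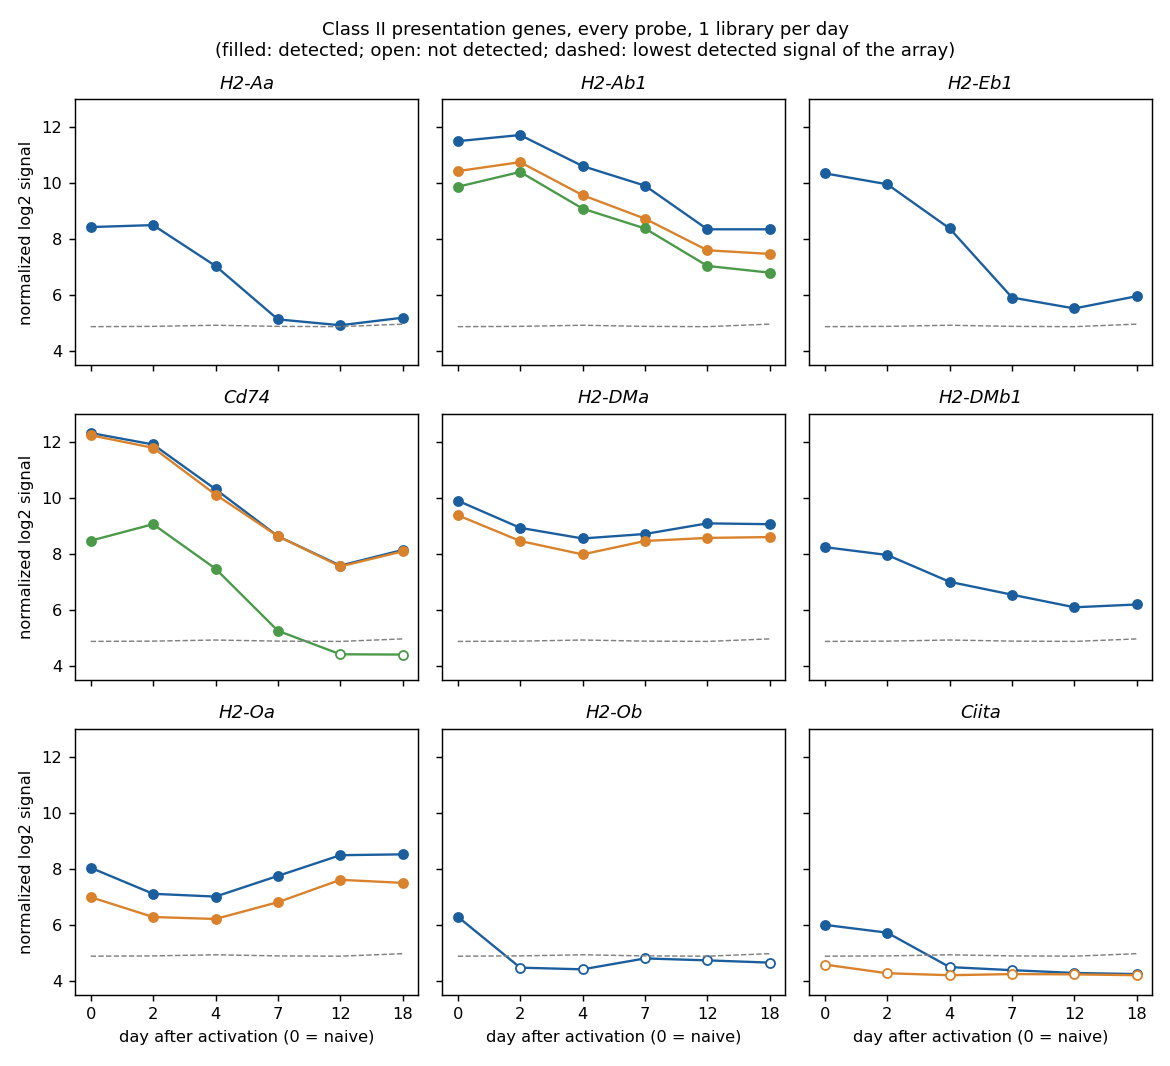
Normalized log2 signal (y axis) of every probe of the 9 members against day (x axis, evenly spaced sampling days), 1 library per day; each coloured line is a probe, filled points are detected, open points are not, and the dashed line is the lowest detected signal of that array. H2-Ab1, H2-Eb1, H2-Aa and Cd74 descend from day 2 to day 12, H2-Oa dips and returns, and H2-Ob and Ciita lie below the dashed line late in culture.

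Cd74, the invariant chain and class II chaperone, was at 12.33 on its brightest probe at day 0, and the activated days in order gave 11.92, 10.32, 8.64, 7.59 and 8.15. Days 0 and 2 were the highest and days 12 and 18 the lowest. It was 4.01-fold lower than naive cells at day 4 and 12.8-fold lower at day 7. The difference was widest at day 12, 26.7-fold, and stood at 18.1-fold on the last day. A second probe followed it closely, at 12.25 at day 0 and 7.56 at day 12. The third, dimmer probe was at 8.48 at day 0, 9.07 at day 2 and 5.26 at day 7, and was not detected at days 12 and 18. At day 2 the probes thus differed in direction, by less than 2-fold each.

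H2-Ab1, the I-A beta chain, was at 11.51, 11.73, 10.62, 9.92, 8.36 and 8.36 at the 6 days in order. It kept its day 0 level longest among the far-lower members, being 1.86-fold below it at day 4, 3.01-fold lower at day 7 and 8.86-fold lower at days 12 and 18. Its other probes gave 10.44 and 9.88 at day 0 and 7.48 and 6.81 at day 18, with the same order of days up to day 12. All 3 probes were detected in every library, which makes it the member with the fullest measurement.

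H2-Aa, the I-A alpha chain that pairs with H2-Ab1, was at 8.44 at day 0, 8.51 at day 2 and 7.05 at day 4, and then at 5.14, 4.93 and 5.20. It was 2.63-fold lower at day 4, 9.83-fold lower at day 7 and 11.4-fold lower at day 12 than at day 0. The last 3 days lay within 0.3 of the detection limit, with detection p-values of 0.00107, 0.00962 and 0.00107, so their order has no weight and the true folds may be larger.

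H2-Eb1, the I-E beta chain, was at 10.36, 9.97 and 8.39 at days 0, 2 and 4 and at 5.92, 5.53 and 5.97 at days 7, 12 and 18. The interval from day 4 to day 7 held its widest step, 5.54-fold lower. It was 28.4-fold lower at day 12 than at day 0 and 21-fold lower at day 18. The partner gene H2-Ea was not detected in any library, with a signal between 4.24 and 4.28; some mouse strains carry no working copy, and the labels do not give the H2 haplotype.

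The time courses of the far-lower members were not parallel. At day 7 against day 0 the log2 difference was -1.59 for H2-Ab1, -3.30 for H2-Aa, -3.68 for Cd74 and -4.44 for H2-Eb1. H2-Eb1 had thus moved 2.85 log2 units further than H2-Ab1 by day 7. The gap was 1.68 at day 12, where H2-Ab1 was 2.95-fold lower than at day 7 and H2-Eb1 1.31-fold below, and 1.25 at day 18, where H2-Eb1 was 1.35-fold above its day 12 level. As a yardstick, the 2 brightest probes of a gene disagreed with an SD of 0.442 log2 units for day 7 against day 0, over 2694 genes. That SD covers probes and not biological replicates, and a probe near the detection limit understates its change.

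**Figure D2:**
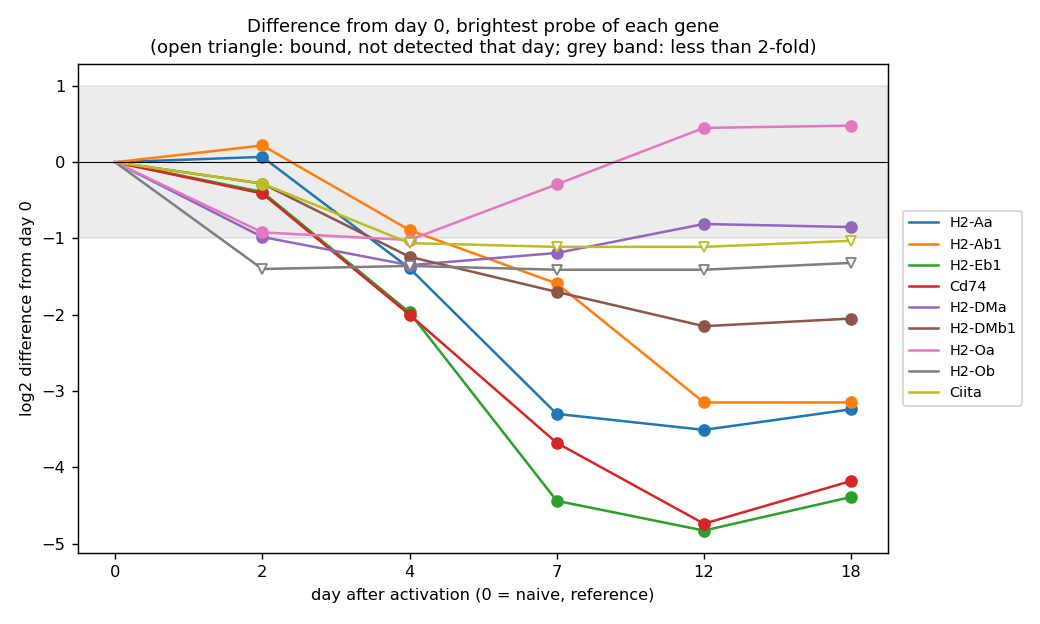
Log2 difference from day 0 (y axis) of the brightest probe of each member at each sampled day (x axis, evenly spaced); filled circles are measured, open triangles are bounds where the probe was not detected, and the grey band is less than 2-fold. H2-Eb1 and Cd74 reach -4.83 and -4.74 at day 12, whereas H2-Oa ends at 0.48.

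The peptide-exchange genes separated. H2-DMb1, the H2-DM beta chain, was at 8.25, 7.97, 7.01, 6.55, 6.10 and 6.20 over the 6 days. It was lower from day 4, by 2.37-fold, to day 18, by 4.15-fold. H2-DMa, its alpha chain partner, was at 9.91 at day 0, 8.94 at day 2, a lowest value of 8.56 at day 4, and 8.72, 9.10 and 9.07 afterwards. It was lower than at day 0 at days 4 and 7, by 2.55-fold and 2.28-fold, and within 2-fold at days 2, 12 and 18. Its second probe ran from 9.39 at day 0 through 7.99 at day 4 and 8.47 at day 7 to 8.61 at day 18. At day 7 that probe was 1.89-fold below day 0, inside the 2-fold limit. H2-DMb2, a paralog close enough to H2-DMb1 that a probe may read both, was at 7.88 at day 0 and 6.14 at day 18, and was 3.34-fold lower. It was the 1 gene lower at day 18 among 3 further class II chains on the array (2 detected in either library), against 9.58% of all genes tested. H2-Eb2 was detected only at day 0, at 5.07.

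The chains of H2-O also went separate ways. H2-Oa, the alpha chain, was at 8.04 at day 0, 7.11 at day 2 and 7.01 at day 4, then at 7.75, 8.49 and 8.52. Days 2 and 4 were its lowest and days 12 and 18 its highest. It was 2.03-fold lower at day 4 than at day 0, and 2.65-fold higher at day 18 than at day 2. At day 18 it stood 1.4-fold above day 0, inside the 2-fold limit. The second probe was at 6.99 at day 0, 6.21 at day 4 and 7.61 at day 12, which left it 1.72-fold below day 0 at day 4. The day 4 call was also lost with the mean of probes (log2 difference -0.90), without background correction (-0.73) and with an offset of 50 (-0.86). H2-Ob, the beta chain, was detected only at day 0, at 6.29, and was at least 2.5-fold lower on each of the 5 activated days. It was the 1 member lower at all 5 days, in a background of 4.05% of 11954 genes detected in at least 1 library. A gene undetected at day 0 could not be called lower, and H2-Ob, detected only there, could not be called higher. That share is therefore not a like comparison for H2-Ob. The calls of H2-Ob at all 5 days were lost without background correction (-0.54 to -0.56), with an offset of 50 (-0.78 to -0.82) and with a 3-fold rule.

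Ciita was near the lower end of the array throughout. The probe listed under its current name was at 6.00 at day 0 and 5.72 at day 2 and was not detected from day 4 on, with detection p-values from 0.126 to 0.687. It was at least 2.09-fold lower at day 4 and at least 2.04-fold lower at day 18. Its calls at days 4 to 18 were lost with the mean of probes (-0.32 to -0.40), without background correction (-0.39 to -0.42), with an offset of 50 (-0.58 to -0.62) and with a 3-fold rule. A second probe, listed under the older name C2TA, was not detected in any library, its lowest detection p being 0.0545 at day 0. A level of Ciita below the detection limit at the later days is not a level of 0.

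Counted together, 1 of 9 members was lower at day 2 than at day 0, against 9.78% of 10958 genes tested. At day 4 it was 8 of 9, against 10.4% of all genes, and at day 7 again 8 of 9, against 10.2%. At days 12 and 18 it was 7 of 9 at each, against 8.47% and 9.58%. None of the 9 was higher in these comparisons, where 8.15%, 8.87%, 9.66%, 7.85% and 8.75% of all genes were, in the order of the days. The member not lower was H2-Ab1 at day 4 and H2-Oa at day 7, and H2-DMa and H2-Oa were the pair not lower at days 12 and 18. The median log2 difference of the members was -0.39, -1.39, -1.62, -2.15 and -2.05 at days 2, 4, 7, 12 and 18, beside -0.02, -0.01, -0.03, 0.02 and 0.02 over all genes tested. These 5 comparisons share the day 0 library. With H2-Ob and Ciita at their bound where undetected, the medians at days 4 and 7 were -1.35 and -1.59.

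Comparisons among activated days do not use the day 0 library. Shares below are over genes detected in either library, as were 8, 7, 7, 7 and 8 of the 9 members, in the order given. From day 2 to day 4, 4 of 9 members were lower (H2-Aa, H2-Ab1, H2-Eb1 and Cd74), against 2.61% of genes, and 0 were higher, against 2.19%. From day 4 to day 7, 3 of 9 were lower (H2-Aa, H2-Eb1 and Cd74), against 2.79%, and 0 higher, against 2.91%. From day 7 to day 12 the lower members were H2-Ab1 and Cd74, against 3.31%, and 0 were higher, against 2.6%. From day 12 to day 18 no member passed 2-fold, against 1.52% of genes higher and 2.63% lower, with Cd74 1.48-fold above its day 12 level. Over the whole activated course, day 18 against day 2, 5 members were lower, against 8.84% of genes, and H2-Oa was higher, against 9.9%. In that comparison H2-Eb1 was 16.1-fold lower, Cd74 13.6-fold, H2-Ab1 10.3-fold, H2-Aa 9.91-fold and H2-DMb1 3.42-fold.

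Genes of the rest of the pathway were read from lists. Of 7 transcription partners of Ciita on the promoter (RFX, NF-Y and CREB subunits), 6 were detected at day 0. None was higher or lower than at day 0 at days 2, 4, 7, 12 or 18. Over all genes tested, 7.85% to 9.66% were higher and 8.47% to 10.4% lower. The partners' median log2 difference at day 18 against day 0 was -0.24, or 0.02 with undetected libraries at their bound. Rfxank, Nfya and Creb1, at 4.92, 4.96 and 4.89 at day 0, lay at the detection limit of 4.88. They could not have been called lower, so the absence of lower calls rests on Rfxap, Nfyb and Nfyc. Nfyc, an NF-Y subunit, was at 11.03 at day 0 and 10.46 at day 18, and Rfxap, an RFX subunit, at 8.37 and 7.96. Rfx5 was not detected in any library.

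Of the processing list, 7 of 9 genes were on the array under a matching name and 6 were detected. At day 18 against day 0, 4 of these were lower and 1 higher, against 9.58% and 8.75% of all genes tested. Ctsh, a lysosomal cysteine protease, was at 9.10, 9.78, 7.76 and 5.05 at days 0, 2, 4 and 7 and not detected afterwards, at least 18.5-fold lower at day 12. Lgmn, the asparaginyl endopeptidase legumain, was at 8.60 at day 0 and was at least 12.4-fold lower at day 18. Ifi30, the lysosomal thiol reductase GILT, and Ctsb, cathepsin B, were 3.12-fold and 3.84-fold lower. Ctsd, cathepsin D, named after its value was seen as the exception, was 2.16-fold higher. Its probe was low on the array, at 5.18 at day 0 and 6.29 at day 18. The uncorrected signals were 116.0 and 127.9, so this fold rests on small differences above background. Ctss, the protease that trims the invariant chain, lay between 5.23 and 5.87 in all libraries. Its uncorrected signals, 104.1 to 124.5, were also close to background, so this narrow range has little weight.

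Of the co-stimulatory molecules of presenting cells, Cd40, Cd86 and Cd80 were highest at day 2. Cd40, the receptor through which T cells stimulate presenting cells, was at 5.51 at day 0, 9.12 at day 2 and 8.06 at day 4, and not detected at days 12 and 18. It was 12.2-fold higher at day 2 than at day 0. Cd86, a CD28 ligand, was at 8.25, 9.13, 7.81, 7.15, 6.48 and 5.38 over the 6 days and was 7.33-fold lower at day 18 than at day 0. Cd80, a further CD28 ligand, was not detected at day 0 and reached 6.15 at day 2. Of the 4 genes listed, 2 (Cd40 and Cd80) were higher at day 2, against 8.15% of all genes tested. At day 18, 1 (Cd86) was lower, against 9.58%.

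Interferon gamma signalling genes had courses of their own. Ifng, the cytokine, was at 7.95 at day 0 and at 10.79, 9.91, 9.36, 7.65 and 9.03 at the activated days. Its receptor chain Ifngr1 was at 9.32, 7.20, 7.43, 9.79, 10.45 and 9.66. Socs1, a feedback inhibitor, was at 5.18 at day 0 and 7.30 at day 7. Of 8 signalling genes 3 were higher and none lower at day 18, against 8.75% and 9.58% of all genes tested. At day 2, 2 were higher and 2 (Ifngr1 and Jak1) lower, against 8.15% and 9.78%. At day 4, 2 were higher and 3 (Ifngr1, Jak1 and Irf1) lower, against 8.87% and 10.4%.

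Of 9 interferon gamma targets, 7 were detected at day 0 or day 18. Of these, 3 were higher and none lower at day 18 than at day 0, against 8.75% and 9.58% of all genes tested. Their median log2 difference was 0.99. Gbp2 and Igtp, interferon-induced GTPases, were 8.11-fold and 7.04-fold higher. Cxcl9, a chemokine of interferon-treated myeloid cells, was at 5.59 at day 0 and 8.21 at day 2 and was not detected from day 7. Cxcl10, a related chemokine, was at 5.93 at day 2 and 5.96 at day 7 and not detected at days 0 and 18. The libraries of days 7, 12 and 18, with the highest Gbp2 and Igtp, had no detected Ciita. Nor had the day 4 library, where Gbp2 and Igtp were within 2-fold of day 0. The Ciita probe was low on the array even at its highest, 6.00 at day 0. A link between these courses was not tested.

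**Figure D3:**
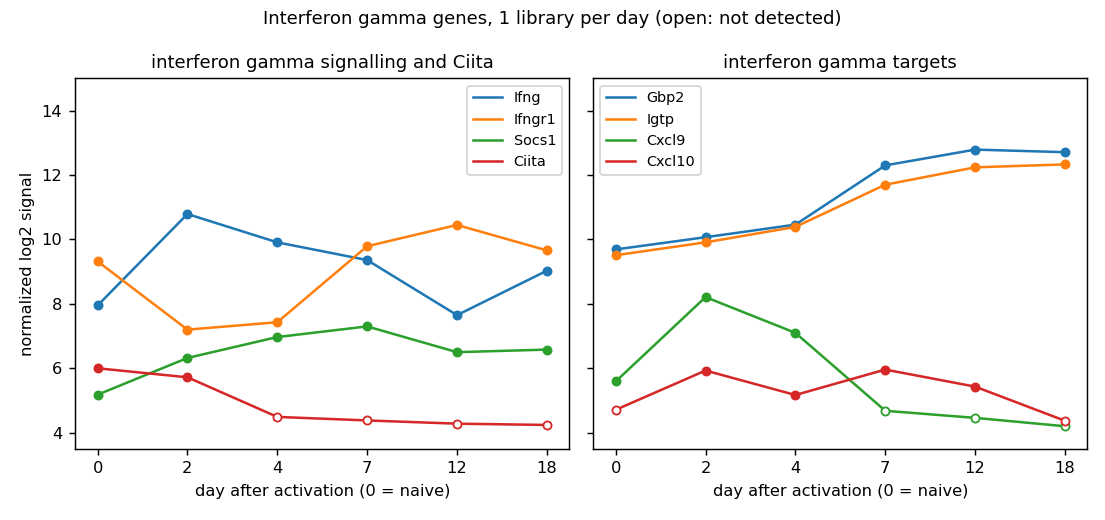
Normalized log2 signal (y axis) by day (x axis, evenly spaced) of interferon gamma signalling genes with Ciita, on the left, and of interferon gamma targets, on the right, 1 library per day; open points were not detected. Gbp2 and Igtp stand at 12.71 and 12.33 at day 18. Ciita is at 6.00 at day 0 and undetected from day 4.

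Macrophage and monocyte markers were mostly lower late in culture, as were most of the members. Of 15 macrophage and monocyte markers, 12 were detected at day 0, and 10, 8, 4, 2 and 2 on the activated days in order. Their summed signal above background, over detected genes, was 5870 at day 0 and then 5610, 1940, 264, 47.6 and 58.6. At day 2, 7 of these markers were lower than at day 0 and 2 higher, against 9.78% and 8.15% of all genes tested. Their median log2 difference was -1.38. Of the class II members, 8 were within 2-fold there, with H2-DMa at -0.98 and H2-Oa at -0.92, and H2-Ob was at least 2.63-fold lower. Spic was at least 25.4-fold lower and C1qc 5.02-fold lower there, and Lyz2 and Cd14 were 5.52-fold and 5.35-fold higher. Cd68, Adgre1 and Fcgr1 were within 2-fold there, like most of the members, at log2 differences of 0.28, -0.68 and -0.47. Lyz2, whose uncorrected signal was 3604.8, carried most of the day 2 sum. For the 9 class II members the same sum was 11200, 9450, 3840, 2090, 1460 and 1580. C1qb, a complement subunit of macrophages, was at 10.62 at day 0 and not detected from day 7, at least 50.1-fold lower at day 18. C1qc, from the same complex, was at 10.43 at day 0 and also undetected from day 7. Lyz2, lysozyme of myeloid cells, was at 9.37 at day 0, 11.83 at day 2 and 5.46 at day 12. Spic, a factor of splenic red pulp macrophages, was detected only at day 0, at 9.56. Cd68, in contrast, was detected in all 6 libraries, at 8.51, 8.78, 7.49, 5.64, 5.16 and 5.56. Its course was close to that of the class II chains and Cd74, with a Pearson r of 0.993 to their mean. At day 18, 11 of these 15 markers (12 detected in either library) were lower than at day 0 and none higher. The shares of all genes tested were 9.58% and 8.75%. Csf1r, C1qa, C1qb, C1qc and Adgre1 were undetected at day 18. The part of these cells in the class II values was not tested.

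Other lists moved less or differently. Of 9 B cell markers on the array 4 were detected at day 0 (Cd79b, Blnk, Fcrla and Vpreb3) and Ms4a1 and Pax5, which mark the lineage, in no library. Their summed signal was 199 at day 0 and 39.7 to 126 later, with Cd79b at 7.33 at day 0 and 7.15 at day 12. Of 8 dendritic cell markers 4 were detected at day 0 and 1, Batf3, on each activated day; Itgax, Flt3 and Xcr1 were in no library. Zbtb46, Siglech and Clec9a, at 6.14, 6.01 and 5.70 at day 0, were undetected at every activated day. Batf3, which activated T cells also express, was at 6.96 at day 0 and 11.28 at day 4, and it makes up the whole dendritic sum of 342 to 2480 at the activated days. Of 7 neutrophil markers 6 were higher at day 2 than at day 0, with S100a8 at 14.09 against 10.19, while Mpo was 6.43-fold lower, and none was detected at day 18. Mast cell and basophil markers had a summed signal of 1540 at day 0 and 6190 at day 7, with Cpa3 at 11.75 at day 7. Against day 0, day 7 had 3 of the 6 on that list higher and 2 lower, against 9.66% and 10.2% of all genes tested. The lower genes were Prss34, by 6.45-fold, and Gata2, by 2.03-fold, and both were lower on every activated day. Natural killer markers had a summed signal of 127 at day 0 and then 0, 16, 0, 62.1 and 132. Klrb1c was 2.49-fold lower at day 18 than at day 0 and Eomes, undetected at day 0, at least 3.62-fold higher. T cell markers had 8 of 11 higher and none lower at day 18, against 8.75% and 9.58% of all genes tested. Their median log2 difference was 1.46, with Cd28 at 6.29 at day 0 and 9.25 at day 18. What each of these contributes to the members' differences was not tested.

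**Figure D4:**
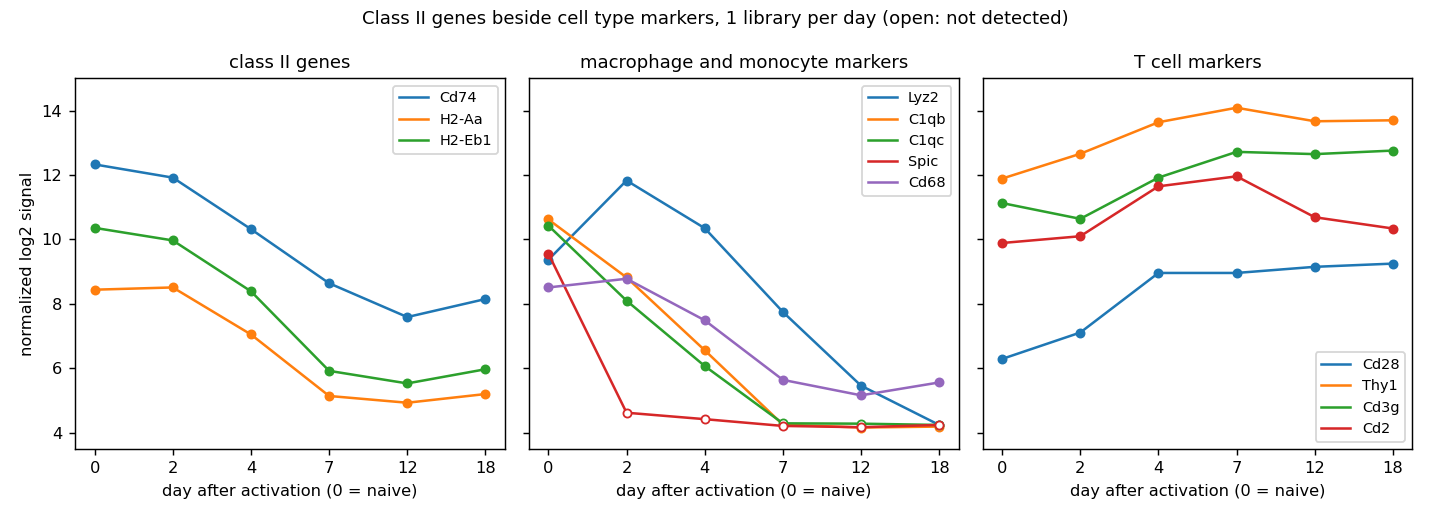
Normalized log2 signal (y axis) by day (x axis, evenly spaced) of 3 class II members, 5 macrophage and monocyte markers and 4 T cell markers, 1 library per day; open points were not detected. C1qb and C1qc are undetected from day 7. Cd68 is detected in all 6 libraries, at 5.16 or above, and Cd74 remains at 7.59 or above. Of the T cell markers, Cd28, Thy1 and Cd3g are higher at day 18 than at day 0 while Cd2 is within 2-fold.

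Levels were also set relative to the T cell markers, a scaling chosen after the data were seen. It moved the median of all genes at day 18 against day 0 to -1.35, with 172 genes higher and 7297 lower in place of 948 and 1039. On that scale Cd74 was at -5.52 and H2-Eb1 at -5.72, and H2-DMa and H2-Oa, within 2-fold otherwise, were lower at -2.33 and -1.09. H2-Oa at day 18 against day 2 was at 0.31 on that scale and no longer higher. Scaling on 11 detected reference genes moved the median of all genes at day 2 to -0.23 and at day 18 against day 2 to 0.23, with 616 higher and 1525 lower at day 2 against day 0 in place of 893 and 1072. Of those 11 reference genes 1, Gusb, was lower at day 18 than at day 0. Scaling on the reference genes made H2-DMa and H2-Oa lower at day 2 than at day 0, at -1.10 and -1.18.

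The genes most like the mean standardized course of H2-Aa, H2-Ab1, H2-Eb1 and Cd74 were sought among 1623 genes detected in at least 1 library with a range of at least 2 log2 units. The 10 with the highest Pearson r over the 6 libraries were Rab32, Cd68, Cfp, Pilra, Ctsh, Fmnl2, Zfp318, Sirpa, Hcar2 and Sirpb1a, with r from 0.987 to 0.998. The 6 points share their libraries and normalization, so r is only a description. Rab32, a small GTPase of lysosome-related organelles, was at 9.17 at day 0 and 5.79 at day 18. Cfp, the complement factor properdin, was at 11.93 and 7.97, and Sirpa, a myeloid inhibitory receptor, at 10.49 and 4.37. Among the members outside that mean, r was 0.984 for H2-DMb1, 0.917 for Ciita, 0.415 for H2-Ob, 0.360 for H2-DMa and -0.642 for H2-Oa.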

How the data were processed

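The authors deposited an intensity for each probe and array, with no normalization or background subtraction, and a detection p-value, both exported from GenomeStudio per the file headers, whose derivation was not given in the sources used here. A second deposited table of normalized intensity values, of unstated method, linear and with values below 0, served as an alternative. All 18 per-sample columns were used.

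Background correction, quantile normalization and log2 transformation used the neqc function in limma 3.58.1 under R 4.3.3, with an offset of 16, with Python 3.11.15, pandas 2.3.3, numpy 2.4.6 and matplotlib 3.10.9 for the rest. Median signals before correction were 87.2 to 93.4 per array. Of 30854 listed names, 16223 were RefSeq GRCm38.p6 symbols, 5684 were unambiguous synonyms and 8947 were kept as listed. A gene was read from its probe with the highest mean. A 2-fold difference was called where the brighter library detected the probe; an undetected library was given the higher of its own signal and the lowest detected one on that array. No model was fitted, with 1 library per day. The calling was tested on simulated data. The members and lists were chosen with earlier results of these data known. Named genes were every member and the 10 nearest in course. Up to 4 called genes per pathway list and 4 genes per marker list were named by widest range. Other genes (Nfyc, Rfxap, Ctss, Ctsd, Jak1, Irf1, Adgre1, Fcgr1, undetected markers) were named after their values were seen. Some listed genes are not reported here. Alternatives were median, reference gene and T cell marker scaling, an offset of 50, no background correction, the second deposited table, a detection p below 0.05, the mean of probes, a 3-fold rule and leaving out each day before normalization.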

Additional observations from a re-analysis of the deposited data

How the results depend on the processing

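No member difference called in the report changed sign under any alternative run. Of 1066 recomputed member differences, 996 kept their call, 52 lost it and 16 gained it. Another 2 that were not called became lower with the sign turned under T cell marker scaling. These were H2-Oa at day 18 against day 0 (0.48 to -1.09) and H2-DMa at day 18 against day 2 (0.13 to -1.03). The 996 include every run leaving out a day. They also include all 82 from the second deposited table, whose values for detected member probes were nearly the main ones. The losses were 20 with a 3-fold rule (62 kept), 13 without background correction (69 kept) and 11 with an offset of 50 (71 kept). The mean of probes lost 6 and T cell marker scaling 2. Counts of lower members were 0 at day 2 against day 0 with a 3-fold rule, without background correction or with an offset of 50, and 3 with reference gene or T cell marker scaling. At day 4 against day 0 they were 2 with a 3-fold rule, 4 without background correction and 5 with an offset of 50, and at day 7 they were 5 with a 3-fold rule. At day 4 against day 2 they were 1 with a 3-fold rule and 7 with T cell marker scaling. At day 12 against day 7 they were 0 with a 3-fold rule and 1 with the mean of probes, no background correction, an offset of 50 or T cell marker scaling. Higher members at day 18 against day 2 were 0 with a 3-fold rule or T cell marker scaling. Among pathway list genes at day 2 against day 0, 6 were higher and 3 lower; higher were 3 with a 3-fold rule, no background correction or an offset of 50, and lower were 1 with a 3-fold rule or no background correction. At day 18 against day 0, 7 were higher and 6 lower; higher were 3 with a 3-fold rule, 4 without background correction or with an offset of 50 and 2 with T cell marker scaling, which made 18 lower. Presenting cell markers lower at day 2 were 10, and 6 with a 3-fold rule or the mean of probes and 5 without background correction; higher at day 18 they were 1, and 0 with T cell marker scaling. No background correction and a larger offset compress low signals, and most calls lost there were of H2-Ob and Ciita, whose signals lie near the detection limit. Other causes were not tested. Leaving out a day before normalization changed no call of a member and moved no count by over 1.5 times. Over all genes, 948 were higher and 1039 lower at day 18 against day 0, and 487 and 570 without background correction and 417 and 516 with a 3-fold rule. Splits of higher and lower that moved by over 10 points were, with reference gene scaling, 677 and 1592 at day 4 against day 0 (968 and 1129 before), 581 and 190 at day 7 against day 4 (303 and 291) and 1496 and 705 at day 18 against day 2 (1064 and 950). With T cell marker scaling they were 552 and 2254 at day 2, 259 and 6233 at day 4, 195 and 7756 at day 7 and 147 and 6955 at day 12, each against day 0, and 296 and 4716 at day 18 against day 2. Between neighbouring activated days they were 49 and 2502 (228 and 272 before), 139 and 680 (303 and 291), 369 and 222 (273 and 347) and 102 and 299 (157 and 271), from day 2 on. No paired analysis was possible because each day has 1 library.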
